A study of Mus musculus with 3 samples.

Results

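The cytoplasmic ribosomal protein genes were 77 of the 50507 gene rows of the count table. They were chosen by name: every row with a plain large-subunit (Rpl) or small-subunit (Rps) symbol, together with the stalk genes Rplp0, Rplp1 and Rplp2 and the small-subunit genes Rpsa and Rps3a1. The rule used no measured value and left out rows named as pseudogenes and the ribosomal S6 kinases. It gave 46 large-subunit and 31 small-subunit genes. Of these, 67 passed a filter on low counts (39 large-subunit and 28 small-subunit) and were tested among 3013 genes. The 10 that did not pass were Rpl7a, Rpl9, Rpl23a, Rpl24, Rpl27, Rpl36, Rpl38, Rps10, Rps27 and Rps28.

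Ribosomal proteins assemble with ribosomal RNA into a large subunit, which joins amino acids, and a small subunit, which reads the messenger RNA. Their transcripts are among the most abundant of a growing cell, and many start with a C and a run of pyrimidines, the 5′ terminal oligopyrimidine (5′TOP) tract, through which growth signals set their translation. MYC, a factor of the reprogramming cassette used here, is known as an activator of genes for ribosome production, and WDR5, a scaffold of histone H3K4 methyltransferase complexes, is known to bind near ribosomal protein genes in several cell types.

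Primary mouse embryonic fibroblasts (MEFs, connective tissue cells of the embryo) of wild-type genotype and strain BL6 were used throughout, and all were reprogrammed at passage 2. Every group carried the inducible tet-OSKM (STEMCCA) lentivirus with Oct4, Sox2, Klf4 and c-Myc and a further lentivirus for rtTA, the doxycycline-dependent activator that drives it. Reprogramming was started on day 0 by adding medium with doxycycline, chiron, Alk5i, ascorbic acid and LIF, so Day00 is the starting point and the other groups had been grown in this medium. Cells of the time course were only re-plated and were sampled as Day00 to Day06 (3 libraries a day); transfected cells received 40 nM of pooled siRNAs against 1 of 33 genes, non-targeting siRNA (nt, 3 libraries) or no siRNA (Mock, 5 libraries), were re-plated a day later and were sampled on day 6 of reprogramming. Each siRNA had 3 libraries, except siMtf1 with 2. Mock had 2 libraries in each of replicates 1 and 2, and whether these were separate wells or repeat libraries is not stated, so tests with Mock may count repeats as replicates. Lentiviruses were added at a multiplicity of infection of 1, so wells can also hold cells without the cassette. RNA was counted by CEL-Seq2, which tags the 3′ end of each transcript with a molecular barcode, and all libraries of a replicate were sequenced as 1 pool. Nothing in the labels says whether the replicates were separate preparations of MEFs, so p-values measure the spread between these libraries.

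Total counts ran from 29656 to 235292 over the 127 libraries used, and ribosomal protein counts from 924 to 12146. Replicate 3 was sequenced deeper (median 127079 counts, against 64227 and 63122 in replicates 1 and 2), and its libraries had a higher summed ribosomal protein share (median 5.30% of counts, against 4.06% and 4.08%). The replicate was a term of every fit, and the part of depth in this difference was not tested. Knockdown could not be checked from these counts. The targets of the 33 siRNAs had a median of 4 counts over the 3 nt libraries, 3 had no count in nt or under their siRNA, and no row was matched for Whsc1l1. Relative to all counts, the target was lower under its own siRNA than in nt for 18 of the 32 with a row and higher for 11. Wdr5 had 7 counts in siWdr5 and 9 in nt, Ncor1 12 and 22, Bard1 0 and 2, Pou5f1 0 and 4, and Prkdc 3 and 5. Among those that were higher, Ep300 had 17 counts in the libraries labelled siEp300 and 3 in nt (42.7 and 10.1 per 1000000 counts), Hdac1 had 18 and 23 (128 and 77.1 per 1000000 counts), Brca1 4 and 2 and Myc 2 and 2. The siRNA names below are therefore those of the labels. All 9 fibroblast markers were detected on Day00, with a summed level of 5210 to 7110 CPM (counts per 1000000 of the TMM-scaled total of tested genes). Of the 5 pluripotency markers, Sall4 had 2 counts on Day00 and Nanog, Esrrb, Zfp42 and Dppa5a had 0. Macrophage and blood markers summed to 124 to 205 CPM on Day00, nearly all from Lyz2 (31 counts), with Ptprc at 0, and the endothelial markers were at 0. In bulk RNA, fewer cells of a type and less RNA per cell cannot be told apart, and because each library started from the same amount of RNA, all levels are relative to the other transcripts.

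Levels differed widely between members. Over all libraries the highest means were those of Rpl7 (4605 CPM), Rps4x (3555 CPM), Rpl10a (3405 CPM), the acidic stalk gene Rplp1 (3348 CPM) and Rps20 (3079 CPM). The lowest among tested members were those of Rpl18 (62.2 CPM), Rpl3 (95.3 CPM), Rps25 (97.6 CPM), Rpl35a (108 CPM) and Rpl29 (114 CPM). Rps27 had 42.8 CPM and Rpl7a 16.0 CPM. A 3′ tag is counted once per transcript whatever its length, so no length correction applies, but these genes have many near-identical copies and the order of levels also depends on how tags could be assigned. The last 300 bases of the transcript were compared in words of 40 bases with every other annotated gene. In 42 of the 77 members under 50% of these words were found in no other gene (9 of the 10 untested members), in 35 at least 50% were, and in 20 all were. Rows named as pseudogenes held many counts for some members: the 1 such row of Rpl7 had 44008 counts beside 39731 for Rpl7 itself, and the 2 rows of Rpl10a had 32619 beside 29631. For Rpl18 the 2 rows had 20515 counts beside 580. Counts are therefore also given below for members with mostly unique and mostly shared 3′ ends.

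A pyrimidine tract could be read at or near the annotated start of a minority of members. The starts of 6 members that have it are shown as examples of the tract, chosen for having it. Many other members described below have none there, among them Rplp0, Rps3a1, Rps4x, Rpl5, Rpl11, Rpl10a, Rps7 and Rps19. The sequences are RefSeq promoters of build GRCm38.p6, 10 bases before and 20 bases from the annotated start. Capitals mark a C and at least 4 following pyrimidines, read from the annotated start base or from a C within 5 bases of it. Pyrimidines can also precede the capitals, which therefore need not mark where a run begins. Rpl26 is shown as a member without the tract.
Rpl35, chr2:39005112-39005141, minus strand: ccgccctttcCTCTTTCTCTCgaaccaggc
Rps18, chr17:33955646-33955675, minus strand: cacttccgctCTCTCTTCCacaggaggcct
Rps6, chr4:86857348-86857377, minus strand: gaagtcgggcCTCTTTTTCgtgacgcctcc
Rpl35a, chr16:33056472-33056501, plus strand: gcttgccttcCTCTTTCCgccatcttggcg
Rplp2, chr7:141447641-141447670, plus strand: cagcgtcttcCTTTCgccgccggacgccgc
Rps21, chr2:180257369-180257398, plus strand: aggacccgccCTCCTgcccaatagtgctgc
Rpl26, chr11:68901556-68901585, plus strand: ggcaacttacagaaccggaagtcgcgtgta
Of the 77 members, 57 had a promoter entry. Read on the transcribed strand from the annotated start base, such a stretch was found in 13 of them (22.8%), against 3.01% of the 27025 genes with an entry. It was found at or within 5 bases of the start in 24 (42.1%), against 18% of genes. Away from the start, a C that followed another pyrimidine was not counted, except 5 bases before the start. Annotated starts can lie some bases from the main start used in these cells, and a match describes letters only.

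The summed share of ribosomal protein transcripts was higher on each later day of the time course than on Day00. It was 2.20% ± 0.34 of all counts on Day00 (SD, n = 3), with 2.05%, 1.96% and 2.58% in replicates 1, 2 and 3. It was 2.93% ± 0.36 on Day01, 3.35% ± 0.40 on Day02, 2.82% ± 0.39 on Day03 and 3.24% ± 0.19 on Day04. On Day05 it was 4.01% ± 0.40, and on Day06 it was 4.01% ± 0.38 with 4.01%, 3.64% and 4.39% in the replicates. Every Day06 library lay above every Day00 library, and Day06 was 1.83 times Day00, higher by 1.96, 1.68 and 1.81 percentage points within replicates 1, 2 and 3. The Day03 libraries (2.58% to 3.26%) overlapped Day00 (1.96% to 2.58%) at its edge. Counting error was smaller than these differences: the Wilson 95% interval of a library's share was 0.172 to 0.472 percentage points wide. The large-subunit sum was 1.93 ± 0.08 times the small-subunit sum on Day00 and 2.04 ± 0.10 times on Day06. The summed fibroblast markers were lower on Day06 (2550 to 3430 CPM) than on Day00 (5210 to 7110 CPM). Col1a1, Col1a2 and Vim held most of the Day00 counts, whereas Dcn had 5 counts on Day00 and 59 on Day06, Lum 2 and 38, and Thy1 71 and 94 (counts over 3 libraries, not scaled for depth). Macrophage and blood markers were at 124 to 205 CPM on Day00 and 18.1 to 89.0 CPM on Day06, and epithelial markers at 0 to 20.5 CPM and 74.2 to 217 CPM. The part of these cell types in the share was not tested.

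**Figure D1:**
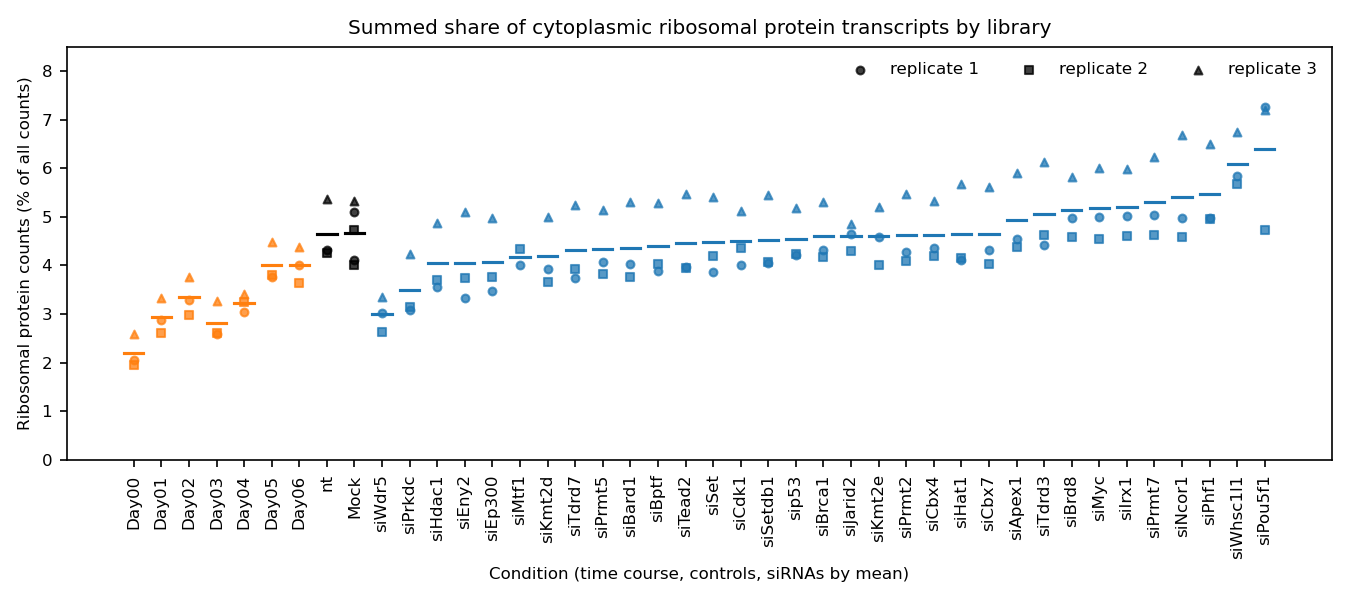
Summed ribosomal protein counts as a percent of all counts (vertical axis), with 1 point per library, a marker shape per replicate and a bar at the mean of each condition (orange, time course; black, controls; blue, siRNAs in order of their mean). The mean is 2.20% on Day00 and 4.01% on Day06, siWdr5 (3.01%) is the lowest siRNA and siPou5f1 (6.40%) the highest, and replicate 3 is often the highest library.

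Between Day00 and Day06, 26 of the 67 tested members were higher and none was lower (edgeR quasi-likelihood test, Benjamini-Hochberg adjusted over 3013 genes); of all tested genes 10.7% were higher and 11.5% lower. The median log2 fold change of the members was 0.62, against 0.05 over all tested genes, and 62 of 67 were above 0. At an unadjusted p under 0.05, 35 were higher. The members that rose were 16 of 39 large-subunit and 10 of 28 small-subunit genes, or 13 of 34 members with mostly unique 3′ ends and 13 of 33 with mostly shared ones. Without replicate 3, 15 members were higher and none lower, and without the filter on low counts 17 were. With RLE in place of TMM scaling, which moved the median gene by −0.161 on the log2 scale, 18 were higher and none lower.

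All 3 genes of the stalk, the flexible arm of the large subunit that recruits translation factors, rose. Rplp0, the base of the stalk, was at 534, 572 and 579 CPM on Day00 and at 1187, 1030 and 1213 CPM on Day06 in replicates 1, 2 and 3. The groups did not overlap, and the log2 fold change was 1.03 ± 0.19 (SE; adjusted p = 3.93e-06). Rplp1 rose from 1143 to 1448 CPM to 2222 to 3012 CPM (log2 fold change 0.92 ± 0.16, adjusted p = 8.07e-07). Rplp2 was at 287, 233 and 298 CPM on Day00 and at 742, 488 and 661 CPM on Day06 (log2 fold change 1.19 ± 0.24, adjusted p = 2.46e-05), again without overlap.

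Among small-subunit genes, Rps20 was at 924, 593 and 993 CPM on Day00 and at 2329, 1988 and 1902 CPM on Day06. Its log2 fold change was 1.28 ± 0.18 (adjusted p = 6.26e-10), and every library of Day06 was above every library of Day00. Rps12 (1.16 ± 0.36, adjusted p = 0.0105), Rps14 (1.05 ± 0.24, adjusted p = 3.02e-04) and Rps4x (0.72 ± 0.16, adjusted p = 1.59e-04), an X-linked gene, also rose. Rps27a, which encodes a fusion of ubiquitin and a ribosomal protein, rose by 0.78 ± 0.27 on the log2 scale (adjusted p = 0.0242), with overlapping groups (205 to 364 CPM and 217 to 675 CPM).

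Among large-subunit genes, Rpl35 was at 144, 148 and 339 CPM on Day00 and at 504, 398 and 743 CPM on Day06 (log2 fold change 1.29 ± 0.25, adjusted p = 1.54e-05). This was the largest change of any tested member; 3.8% of its last 300 bases' words were unique, so its tags can belong to copies elsewhere. Rpl19 rose by 1.21 ± 0.25 (adjusted p = 3.23e-05), Rpl7 by 1.11 ± 0.17 (adjusted p = 8.39e-09) and Rpl41, the smallest ribosomal protein, by 0.97 ± 0.17 (adjusted p = 1.74e-06) on the log2 scale. Rpl5 and Rpl11, which form a particle with 5S ribosomal RNA and bind MDM2 outside the ribosome, did not pass the test. Rpl5 had 246, 233 and 571 CPM on Day00 and 356, 343 and 586 CPM on Day06 (0.22 ± 0.24, adjusted p = 0.572). Rpl11 had 144, 106 and 157 CPM and then 44.5, 181 and 68.2 CPM (−0.69 ± 0.43, adjusted p = 0.261).

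On Day01, when the share was already 1.34 times that of Day00 without overlap, 2 members were called higher and none lower, with 3.09% of all genes called higher and 6.8% lower. They were Rpl19 (log2 fold change 0.80 ± 0.27, adjusted p = 0.0348) and Rpl4 (0.59 ± 0.19, adjusted p = 0.0216); the median over members was 0.19. Neither passed the test when replicate 1, 2 or 3 was left out, with 0 members called each time. Rpl4 had 677, 805 and 985 CPM on Day00 and 1032, 1185 and 1480 CPM on Day01. The counts called higher against Day00 were 19 on Day02 (5.14% of all genes), 12 on Day03 (5.11%), 19 on Day04 (8.3%) and 39 on Day05 (16.8%). Called lower were 0 on Day02 (6.44% of all genes), 1 on Day03 (5.81%), 0 on Day04 (10.4%) and 0 on Day05 (15%). The comparisons share the Day00 libraries. On Day05 the median over members was 0.95. The highest of the 7 daily means fell on Day05 for 38 of the 67 tested members and on Day06 for 11. Rpl5 was among the former, at 672, 743 and 1198 CPM that day (1.24 ± 0.22 above Day00, adjusted p = 7.02e-07) against the Day06 values above. Rpl10a had 826 to 1299 CPM on Day00, 1028, 1500 and 1289 CPM on Day05 (0.28 ± 0.17, adjusted p = 0.213) and 2433, 2205 and 2331 CPM on Day06 (1.15 ± 0.17 above Day00, adjusted p = 3.91e-09). Tested across the 7 days at once, 47 members differed, with 42.5% of all genes called.

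**Figure D2:**
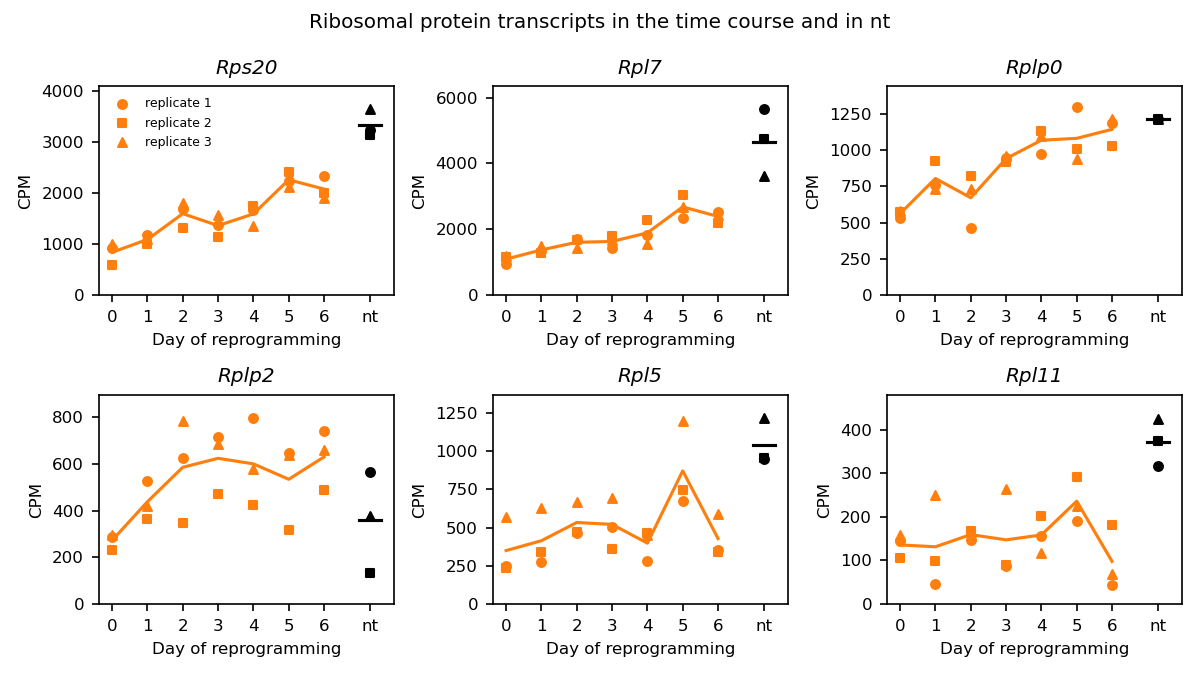
Levels in CPM (vertical axes) of 6 members by day of reprogramming (horizontal axes), with 1 point per library, a marker shape per replicate, a line through the daily means and the nt libraries in black at the right with a bar at their mean. Rps20, Rpl7 and Rplp0 have their highest daily means on Day05 or Day06, Rpl5 and Rpl11 theirs on Day05 with lower values on Day06, and Rplp2 is lower in nt than on Day06 while Rpl7 and Rpl11 are higher.

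Many members were higher in cells transfected with non-targeting siRNA than in untransfected cells of the same day. The share was 4.64% ± 0.62 in nt (4.32%, 4.25% and 5.36%) and overlapped Day06, but it was higher within each replicate, by 0.316, 0.615 and 0.968 percentage points. Of the tested members 32 were higher and 3 lower in nt, against 15.6% and 11% of all genes, and the median log2 fold change was 0.52 (−0.01 over all genes). Transfection, its added day before reprogramming and the non-targeting siRNA cannot be told apart in this comparison. Rpl11 was highest by fold, at 316, 374 and 425 CPM in nt against the Day06 values above (log2 fold change 2.14 ± 0.34, adjusted p = 1.53e-07), without overlap. Rpl34 followed with 83.3, 59.8 and 278 CPM in nt and 14.8, 18.1 and 68.2 CPM on Day06 (1.93 ± 0.46, adjusted p = 5.41e-04), where the groups overlapped. Rps18 (1.81 ± 0.46, adjusted p = 0.00122), Rps25 (1.46 ± 0.51, adjusted p = 0.0242) and Rpl26 (1.41 ± 0.24, adjusted p = 8.31e-07) also rose, and so did Rpl5 (1.27 ± 0.21, adjusted p = 1.84e-07). Rps25 had 0 counts in 2 of the 3 Day06 libraries, so its fold change rests on few counts.

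The 3 members that were lower in nt were Rps2, Rplp2 and Rpl6. Rpl6 had 2270, 1898 and 2120 CPM on Day06 and 1032, 1301 and 1634 CPM in nt, without overlap (−0.65 ± 0.16, adjusted p = 9.60e-04). Rplp2 had 566, 135 and 376 CPM in nt, the replicate 2 library being far below the others (−0.84 ± 0.22, adjusted p = 0.00217). Rps2 had 237, 325 and 607 CPM on Day06 and 167, 239 and 270 CPM in nt (−0.85 ± 0.26, adjusted p = 0.00888). By subunit, 16 of 39 large-subunit and 16 of 28 small-subunit genes were higher in nt, and the large-to-small ratio was 1.69 ± 0.03 in nt against 2.04 ± 0.10 on Day06. Members with mostly unique 3′ ends gave 16 higher and 2 lower, and those with mostly shared ones 16 and 1. Without replicate 3, 14 members were higher and 2 lower, and by limma on the deposited log2 values 6 were higher and 2 lower.

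Mock cells, transfected without siRNA, had a share that overlapped nt (4.66% ± 0.59, n = 5 libraries of 3 replicates, from 4.01% to 5.34%). Against nt, 2 members were higher and none lower, with 1.03% of all genes called higher and 0.531% lower, and 20 members had an unadjusted p under 0.05. Without replicate 1 there was 1 member called, without replicate 2 or 3 there were 0, and DESeq2 called 4 higher and 3 lower. Rps7 was at 1649, 1241 and 1683 CPM in nt and between 1738 and 2926 CPM in Mock (0.66 ± 0.15, adjusted p = 0.00508). Rpl10a was at 3131, 3096 and 3447 CPM in nt and at 5780, 3880, 5880, 3252 and 4627 CPM in Mock (0.55 ± 0.13, adjusted p = 0.00771). Rplp0 lay lower in all 5 Mock libraries (627 to 1124 CPM) than in the nt libraries (1216, 1211 and 1217 CPM), with an adjusted p of 0.0592. These 3 genes recur in the siRNA comparisons, all of which use the same nt libraries.

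The siWdr5 libraries had the lowest mean share of any siRNA. It was 3.02%, 2.64% and 3.36% in replicates 1, 2 and 3 (3.01% ± 0.36), against 4.32%, 4.25% and 5.36% in nt. The groups did not overlap, and the difference within the replicates was −1.31, −1.61 and −2.0 percentage points. Of the 67 tested members 38 were lower and none higher, against 15.1% and 12.2% of all genes, with a median log2 fold change of −0.67 (0.00 over all tested genes), and 60 of 67 were below 0. The large-to-small ratio was 1.76 ± 0.06, near that of nt. Members with mostly unique 3′ ends gave 19 lower of 34, and those with mostly shared ones 19 of 33. The number called lower depended on the fit, with none called higher in any: 13 without replicate 3, 25 with RLE scaling (which moved the median gene by 0.174), 24 by DESeq2 and 4 by limma on the deposited log2 values, where the median over 77 members was −0.51 and 33 had an unadjusted p under 0.05. The summed fibroblast markers were at 4860 to 5680 CPM in siWdr5 and at 1880 to 2810 CPM in nt, although Lum had 89 counts in siWdr5 and 100 in nt. Epithelial markers were at 26.4 to 56.9 CPM in siWdr5 and at 89.7 to 150 CPM in nt, also without overlap, although Cdh1 had 7 counts in siWdr5 and 4 in nt, and macrophage and blood markers at 0 to 114 CPM and 16.3 to 29.9 CPM. The part of these cell types in the difference was not tested.

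The largest fall was that of Rps14, a small-subunit gene deleted in the 5q- syndrome. It had 1632, 1211 and 1291 CPM in nt and 568, 370 and 456 CPM in siWdr5 (log2 fold change −1.56 ± 0.19, adjusted p = 4.88e-12), so that the highest siWdr5 library was below the lowest nt library. Rps3a1 fell from 949, 688 and 1209 CPM to 304, 299 and 626 CPM (−1.19 ± 0.20, adjusted p = 3.55e-07). Rps19, the gene most often mutated in Diamond-Blackfan anaemia, fell by 1.17 ± 0.32 on the log2 scale (adjusted p = 0.00285) with overlapping groups (316, 165 and 449 CPM against 92.5, 128 and 190 CPM). Rpsa, which is also known as a laminin receptor, fell from 566, 523 and 645 CPM to 304, 313 and 285 CPM (−0.95 ± 0.24, adjusted p = 0.00139), and Rps4x fell by 0.75 ± 0.14 (adjusted p = 1.20e-05).

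In the large subunit, Rpl26 had 666, 583 and 735 CPM in nt and 198, 242 and 294 CPM in siWdr5 (−1.42 ± 0.24, adjusted p = 7.60e-07), without overlap. Both members of the 5S particle fell: Rpl11 from 316, 374 and 425 CPM to 172, 171 and 161 CPM (−1.16 ± 0.30, adjusted p = 0.00162) and Rpl5 from 949, 957 and 1217 CPM to 489, 412 and 551 CPM (−1.10 ± 0.20, adjusted p = 4.27e-06). Rpl7, the most abundant member, fell from 5645, 4726 and 3619 CPM to 2298, 2175 and 1984 CPM (−1.10 ± 0.15, adjusted p = 1.23e-10). Rpl35 (−1.09 ± 0.22, adjusted p = 4.70e-05), Rpl10a (−0.86 ± 0.15, adjusted p = 1.83e-06), Rpl10, which joins the subunit late in its maturation (−0.74 ± 0.19, adjusted p = 0.00176), and Rpl36a (−0.94 ± 0.37, adjusted p = 0.0442) were lower too.

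Of the stalk genes, only Rplp1 passed this test. It fell from 4080, 3545 and 3121 CPM to 2866, 2374 and 2098 CPM (−0.55 ± 0.14, adjusted p = 0.00185). Rplp0 had 898, 1023 and 1130 CPM in siWdr5, all below the nt libraries (1216, 1211 and 1217 CPM), but did not pass the test (−0.25 ± 0.17, adjusted p = 0.274). Rplp2 had 475, 284 and 541 CPM (0.32 ± 0.23, adjusted p = 0.299). Rps2 had 251, 142 and 484 CPM (0.42 ± 0.28, adjusted p = 0.253).

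**Figure D3:**
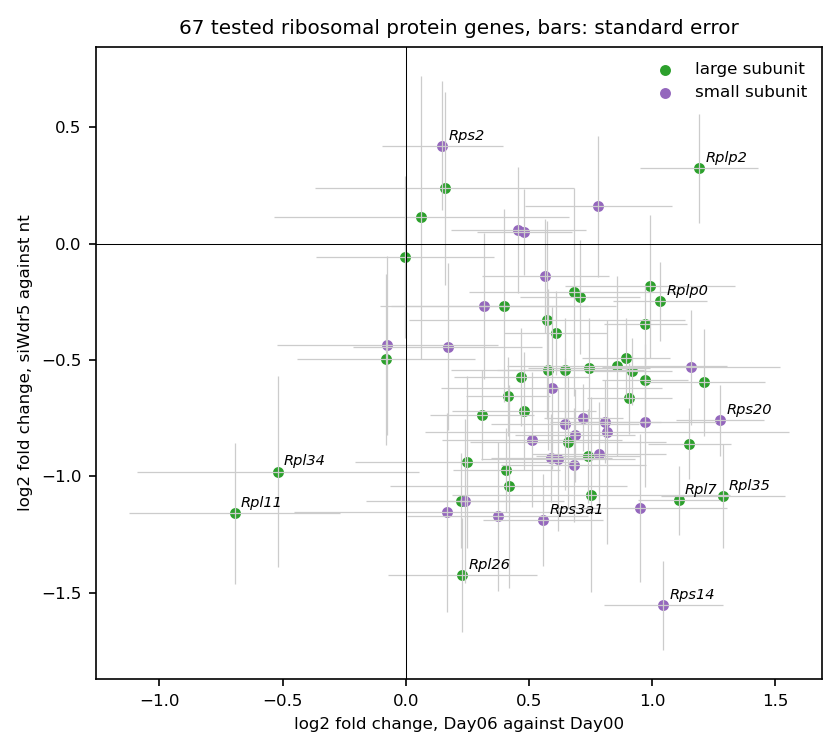
Log2 fold change between Day06 and Day00 (horizontal axis) and between siWdr5 and nt (vertical axis) for the 67 tested members, large-subunit genes in green and small-subunit genes in purple, with grey bars of 1 standard error. Most points lie at the lower right, higher by Day06 and lower in siWdr5, without a line through them.

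The Day06 and siWdr5 comparisons share no library. Of the 26 members higher by Day06, 18 were lower in siWdr5 (69.2% of those 26 and 47.4% of the 38), where 56.7% of all tested members were lower. Across the 67 members, which are not independent replicates and share their libraries, Pearson's r of the log2 fold changes was −0.02 and Spearman's rho −0.01. Rps20, Rpl35, Rpl7 and Rps14 were called in both. Rpl26, Rpl11 and Rps3a1 were among the largest falls in siWdr5 and did not pass the test between Day00 and Day06 (0.23 ± 0.30, −0.69 ± 0.43 and 0.56 ± 0.24).

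BARD1 and BRCA1, the subunits of a nuclear ubiquitin ligase of DNA repair, were the factors set beside WDR5 in the study. The share was 4.37% ± 0.83 in siBard1 and 4.60% ± 0.61 in siBrca1, overlapping nt. Within replicates 1, 2 and 3 it differed from nt by −0.293, −0.489 and −0.049 percentage points in siBard1. In siBrca1 the differences were −0.00773, −0.0668 and −0.0584, smaller than the narrowest Wilson interval of a library (0.172). In siBard1, 5 members were lower (4.78% of all genes) and 1 was higher (5.54%), and in siBrca1, 3 were lower (1.73%) and 1 was higher (2.49%). In siBard1, Rps21 fell by 1.05 ± 0.34, Rps26 by 0.89 ± 0.31, Rpl10 by 0.65 ± 0.19, Rps14 by 0.54 ± 0.18 and Rps20 by 0.45 ± 0.15 on the log2 scale (adjusted p = 0.0288, 0.0411, 0.0133, 0.0287 and 0.0358). Rps2 rose by 0.78 ± 0.26 (adjusted p = 0.0362), from 167, 239 and 270 CPM in nt to 240, 360 and 535 CPM, with overlapping groups. In siBrca1, Rps19 had 145, 114 and 106 CPM, all below nt (−1.46 ± 0.37, adjusted p = 0.00721). Rplp0 had 579, 866 and 766 CPM (−0.72 ± 0.19, adjusted p = 0.0100) and Rps14 had 723, 524 and 1131 CPM (−0.71 ± 0.19, adjusted p = 0.0103). Rplp2 was higher (0.78 ± 0.24, adjusted p = 0.0345), and its nt library of replicate 2 was low. In siBard1, 0 were left without replicate 1 or 3 and 3 without replicate 2, and in siBrca1, 1 without replicate 1 or 3 and 2 without replicate 2. With the nt and Mock libraries jointly as control, 12 were lower and 1 higher in siBard1, and 5 lower and 0 higher in siBrca1. The share of all genes called with this larger control was not counted, so these counts cannot be set against other genes.

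Members were lower in siWdr5 also when it was set against these conditions directly. Against siBard1, 18 members were lower and none higher (5.18% of all genes lower, 3.19% higher), with a median log2 fold change of −0.38, and the shares did not overlap (2.64% to 3.36% and 3.76% to 5.31%). Against siBrca1, 23 were lower and none higher (6.97% of all genes lower, 3.02% higher), with a median of −0.53. Without replicate 3 these counts were 8 and 4, and that against siBrca1 was 13 without replicate 1 or 2. Fibroblast markers were at 3030 to 3750 CPM in siBard1 and 2190 to 3530 CPM in siBrca1, below siWdr5 in both.

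**Figure D4:**
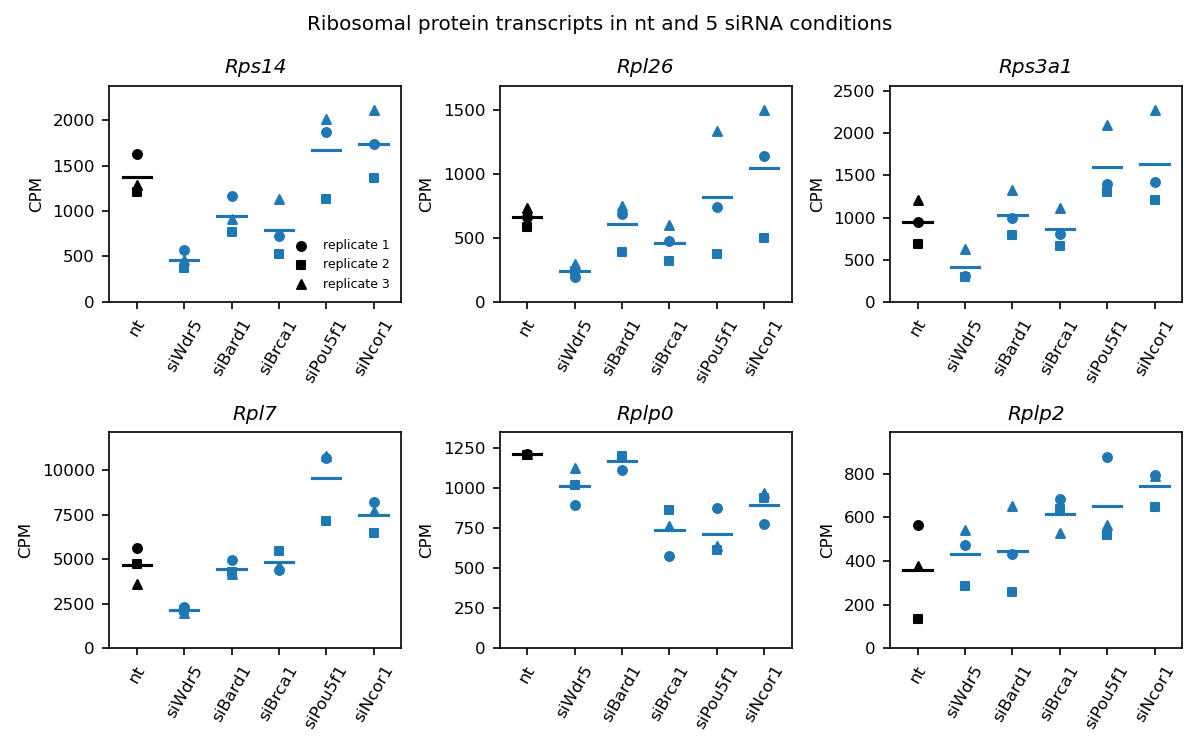
Levels in CPM (vertical axes) of 6 members in nt (black) and 5 siRNA conditions (blue), with 1 point per library, a marker shape per replicate and a bar at the mean. Rps14, Rpl26, Rps3a1 and Rpl7 are lowest in siWdr5, Rpl7 is highest in siPou5f1, while Rplp0 in siWdr5 lies slightly below nt without passing the test and Rplp2 overlaps nt.

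Across the screen, the mean share of the 33 siRNAs ran from 3.01% to 6.40%, with a median of 4.60%. It was below nt in all 3 replicates for 12 siRNAs and above nt in all 3 for 10. Tested over nt and every siRNA at once, 54 of 67 members differed (44.8% of all genes). Against nt, 24 of the 33 siRNAs had at least 1 member called, 8 only higher, 9 only lower and 7 both ways, with a median of 2 members per siRNA. The share of all genes called either way ranged from 0.133% to 27.2% between siRNAs, with a median of 1.03%. Without replicate 1, 2 or 3, 13, 13 and 11 siRNAs had a member called. These counts depend on the control, as the comparisons share the nt libraries. When the nt and Mock libraries served jointly as control (8 libraries), Rplp0 was lower in 1 siRNA in place of 9. Rpl10a was then higher in 1 and lower in 9 in place of 6 and 1, and Rps7 higher in 2 and lower in 11 in place of 5 and 1. Rps14 was lower in 8 siRNAs with either control and higher in none. With nt alone these were siBard1, siBrca1, siEny2, siHdac1, siKmt2d, siPrkdc, siWdr5 and the libraries labelled siEp300. The target itself was not lower relative to all counts than in nt in siBrca1, siEny2, siEp300, siHdac1 and siKmt2d. Rplp2, with a low nt library in replicate 2, was higher in 6 siRNAs with nt and in 4 with both controls. Rps3a1 was higher in 3 and lower in 3 with nt and higher in 2 and lower in 9 with both.

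The following conditions were chosen after their values were seen. Pou5f1 (Oct4) is a factor of the cassette itself, and siPou5f1 had the highest share, 7.27%, 4.73% and 7.20% in replicates 1, 2 and 3 (6.40% ± 1.45). The replicate 2 library lay within the range of nt (4.25% to 5.36%). In siPou5f1, 18 members were higher and 1 lower (3.58% and 2.19% of all genes), with a median log2 fold change of 0.29. Rpl7 rose to 10716, 7142 and 10794 CPM, all above nt (1.06 ± 0.14, adjusted p = 3.31e-10). Rps15a (1.18 ± 0.31, adjusted p = 0.00715) and Rpl36a (1.14 ± 0.30, adjusted p = 0.00686) rose as well, and Rps7 rose to 2176 to 4259 CPM (1.00 ± 0.16, adjusted p = 5.80e-07). Rplp0 was the lower member, at 878, 615 and 642 CPM (−0.79 ± 0.19, adjusted p = 0.00226). Members with mostly unique 3′ ends gave 9 higher and 1 lower, and those with mostly shared ones 9 and 0. Without replicate 1, 2 or 3, 12, 14 and 7 members were called, and 3 in a fit of these libraries alone. Fibroblast markers were at 1030 to 1370 CPM, below nt, and their part was not tested.

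Ncor1 encodes a co-repressor that works with histone deacetylases. In siNcor1 the share was 4.97%, 4.58% and 6.68%, and 15 members were higher and none lower (3.42% of all genes higher, 1.03% lower). They included Rplp2 (1.09 ± 0.22, adjusted p = 2.79e-04), Rps7 (0.99 ± 0.16, adjusted p = 2.87e-06), Rps3a1 (0.79 ± 0.17, adjusted p = 5.94e-04) and Rpl7 (0.70 ± 0.14, adjusted p = 1.50e-04). For Rplp2 the log2 difference was 0.47, 2.06 and 1.02 in replicates 1, 2 and 3, and its nt library of replicate 2 was low. Without replicate 3, 3 were called, and 10 with nt and Mock jointly as control, where the share of all genes was not counted. Compared directly, siPou5f1 and siNcor1 differed in 0 members by edgeR (10 at an unadjusted p under 0.05), with 0.332% of all genes called.

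In siWhsc1l1, against a histone H3K36 methyltransferase gene, 7 members were higher and none lower (1.1% of all genes higher, 0.664% lower), and the share was 5.83%, 5.68% and 6.74%, above nt in every library. Rpl10a had its highest mean of any condition there, with 7491, 7806 and 6891 CPM (1.19 ± 0.15, adjusted p = 3.74e-11), and Rpl35 had 1475, 1358 and 2200 CPM (1.24 ± 0.19, adjusted p = 3.33e-07); 4 were called without any of the replicates in turn. In siPhf1, 7 were higher and none lower (1.16% of all genes higher, 0.763% lower), and 2 were called without replicate 2 or 3. In siPrkdc, against the catalytic subunit of DNA-dependent protein kinase, 6 were lower and none higher (1.19% of all genes lower, 0.564% higher), and the share was 3.09%, 3.14% and 4.23%. They included Rps21, Rps14, Rps3a1, Rps4x and Rpl8, among which Rps21 had 80.2, 59.0 and 109 CPM (−1.58 ± 0.40, adjusted p = 0.0118) and Rps14 had 695, 826 and 820 CPM (−0.78 ± 0.19, adjusted p = 0.0072). Without replicate 1 or 3, 1 was called. With nt and Mock jointly as control 12 were lower, and the share of all genes was not counted there. In siMyc the share was 5.18% ± 0.75 (4.54% to 6.0%), overlapping nt but above it within each replicate, by 0.683, 0.286 and 0.643 percentage points. There 0 members were called by edgeR, with 0.299% of all genes called; 13 had an unadjusted p under 0.05 and DESeq2 called 2. Fibroblast markers were at 1880 to 2810 CPM in nt, 2720 to 2870 CPM in siWhsc1l1 and 2620 to 3100 CPM in siPhf1. They were at 2650 to 2810 CPM in siPrkdc, 1950 to 2340 CPM in siMyc and 1740 to 2550 CPM in siNcor1. Their part in the share was not tested.

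Of the 67 tested members, 9 passed neither the test across the 7 days nor the one across nt and all siRNAs, which 42.5% and 44.8% of all genes passed: Rpl17, Rpl18, Rpl29, Rpl35a, Rpl37a, Rpl39, Rps3, Rps6 and Rps13. Some of the 9 were still called between 2 conditions. Rps13 was higher by Day06 (0.78 ± 0.30, adjusted p = 0.0443), Rps3 was lower in siWdr5 (−0.78 ± 0.28, adjusted p = 0.0285), and Rpl35a was lower in siWdr5 (−1.08 ± 0.42, adjusted p = 0.0414) and higher in nt than on Day06 (1.21 ± 0.42, adjusted p = 0.0219). Of the 9, 7 had mean levels from 62.2 to 139 CPM over all libraries. Rps6, the substrate of the S6 kinases, had 205, 106 and 82.8 CPM on Day00 and 148, 90.4 and 102 CPM on Day06, and 200, 209 and 155 CPM in nt and 106, 114 and 171 CPM in siWdr5 (−0.44 ± 0.38, adjusted p = 0.404). Rpl39 was between 49.7 and 114 CPM in every Day00, Day06 and nt library. Rpl22, for which a near relative, Rpl22l1, exists, was not called between Day00 and Day06 (−0.08 ± 0.36, adjusted p = 0.919) nor in siWdr5 (−0.50 ± 0.37, adjusted p = 0.311). Precision was lower at these levels: the standard error of the difference between Day00 and Day06 was 0.45 on the log2 scale for Rps6 and 0.17 for Rpl7.

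Between Day00 and Day06, 6 of 19 tested ribosome biogenesis genes (nucleolar assembly factors and subunits of RNA polymerase I) rose and none fell, with a median log2 fold change of 0.70; of all tested genes 10.7% rose and 11.5% fell. Of 16 tested transcripts of the 5′TOP class that encode no ribosomal protein, 5 rose and 1 fell, and of 25 tested mitochondrial ribosomal protein genes 2 rose and 1 fell (median 0.10). In siWdr5, where 15.1% of all genes were lower and 12.2% higher, 3 of the 19 biogenesis genes were lower, which is near the share of all genes, and their median was −0.34 (0.00 over all genes). Of the 25 mitochondrial ribosomal protein genes 8 were lower (median −0.42), none of either list was higher, and the 16 other 5′TOP transcripts divided into 3 higher and 5 lower. In nt against Day06, where 15.6% of all genes were higher and 11% lower, the latter divided into 4 higher and 5 lower. The 5′TOP list holds Npm1, which encodes a nucleolar protein of ribosome assembly (1.35 ± 0.17 by Day06, adjusted p = 2.90e-11; −1.49 ± 0.14 in siWdr5, adjusted p = 4.45e-18). It also holds Vim, one of the 9 fibroblast markers, which was the 1 that fell by Day06 (−1.12 ± 0.18, adjusted p = 7.88e-08) and was among the 3 higher in siWdr5 (1.04 ± 0.19, adjusted p = 2.94e-06). Rows named as pseudogenes of the members, 117 of which were tested, were counted the same way: 25 rose and none fell by Day06, 41 fell and none rose in siWdr5, and 51 rose and 4 fell in nt against Day06. Where their 3′ ends are shared, a tag cannot tell these rows from their parent genes.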

How the data were processed

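Counts of unique molecular identifiers per gene were deposited by the authors in 1 table for 129 CEL-Seq2 libraries. According to the study's methods and the labels, reads were mapped to mm10 and counted with the CEL-Seq2 pipeline. The authors also deposited log2 values per gene, scaled by size factors and with the batch regressed out, which were used only for an alternative fit. Conditions and replicates were read from the column names, and each of the 3 labelled samples is the pool of 1 replicate. The 127 libraries with at least 10000 counts were used. Counts were fitted with edgeR 4.0.16 in R 4.3.3 by the quasi-likelihood test after TMM scaling and filterByExpr by condition, with condition and replicate as terms over all libraries (83 residual degrees of freedom). The Benjamini-Hochberg method was applied over 3013 genes within each comparison at 0.05. The replicate block was kept because the labels give each replicate as a sequencing pool; residuals of libraries from the same replicate had a median correlation of 0.0981, against −0.0685 between replicates. CPM are counts per 1000000 of the TMM-scaled total of tested genes. Wilson 95% intervals of a share cover counting error only. Alternatives used DESeq2 1.42.0 and limma 3.58.1. Named genes were 16 members listed by role, the 5 largest called changes in each direction per comparison with the same sign in every replicate, the 5 highest and 5 lowest members by mean CPM, and the 5 called in most siRNAs. The members named outside this rule, Rpl17, Rpl23a, Rpl24, Rpl27, Rpl36, Rpl37a, Rpl38, Rpl7a, Rpl8, Rpl9, Rps10, Rps13, Rps15a, Rps28 and Rps3, were chosen after their values were seen. Some members are not reported here by name. Members, gene lists and conditions described were chosen with earlier results of these data known.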

Additional observations from a re-analysis of the deposited data

Results flagged for a closer look

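Rps2 in Mock was the 1 value that stood apart among the 38 members and sums tested for it in the 5 Mock libraries, the only group of more than 3. Its level was 412 CPM in 1 of the replicate 1 libraries and 174 to 209 CPM in the other 4, so that the gap to the next library was 0.852 of the whole range, above the Dixon limit of 0.71. Replicates 1 and 2 each hold 2 of the 5 libraries, which may be repeats of 1 well, so the 5 may not be independent. Chance flags about 1 in 20 groups.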

How the results depend on the processing

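No member called in a main comparison changed direction under any alternative. Of 1234 recomputed values of called members, 830 kept their call and 404 lost it. The replicate block was part of the reported fit; without it, fewer members were called: 14 between Day06 and Day00, 0 between Day01 and Day00, 18 between nt and Day06, 0 between Mock and nt, 19 in siWdr5, 0 in siBard1, 0 in siBrca1, 27 across the days, 27 across the siRNAs, and 6 siRNAs with a member called. Leaving out each replicate in turn gave 15 to 22 members for Day06, 0 for Day01, 16 to 31 for nt against Day06, 0 to 1 for Mock, 13 to 29 for siWdr5, 0 to 3 for siBard1, 1 to 2 for siBrca1, 29 to 38 across the days, 36 to 48 across the siRNAs and 11 to 13 siRNAs. Without the filter, which adds genes to the adjustment, the counts were 17 for Day06, 0 for Day01, 22 for nt, 1 for Mock, 23 for siWdr5, 0 for siBard1, 1 for siBrca1 and 14 siRNAs. By limma on the deposited log2 values they were 8 for nt, 0 for Mock, 4 for siWdr5, 0 for siBard1, 1 for siBrca1, 25 across the siRNAs and 5 siRNAs; the cause was not tested. DESeq2 called 1 for Day01, 7 for Mock, 24 for siWdr5 and 2 for siBard1, and RLE scaling gave 25 for siWdr5 and 3 for siBard1. Adding pseudogene rows to their parents gave 5 for Day01, 5 for Mock and 13 for siBard1, and fitting only the libraries compared gave 9 for Day01. The summed share with pseudogene rows was 3.79% on Day00, 6.68% on Day06, 8.07% in nt, 5.13% in siWdr5 and 11.1% in siPou5f1, and as a share of the tested genes 2.69%, 4.88%, 5.32% and 3.58% in the first 4 of these. The filter on low counts left 10 of 77 members untested.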
